A study of Mus musculus with 6 samples.

Results

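Expression from the C57BL/6 (mus) and the castaneus (cast) allele was compared gene by gene on the autosomes of stimulated mouse T cells. The genes were those on chromosomes 1 to 19 with at least 20 reads assigned to an allele, both alleles summed, in each of the 3 stimulated libraries. The rule was met by 11373 of the 49671 genes in the deposited table, of which 45365 are autosomal and 19453 had at least 1 allelic read in a stimulated library. It uses the number of reads and not the allele they came from. Of the genes that met it, 106 had exactly 20 reads in their shallowest library, and 55 autosomal genes missed it with 19. Of the 11373 genes, 10081 are protein coding in the GENCODE M21 annotation.

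The cells were splenic CD3+ T cells, isolated on enrichment columns from female F1 mus x cast mice. Their mothers were C57BL/6 mice carrying a heterozygous Xist deletion (Xist RNA silences the inactive X), and their fathers were M. m. castaneus. Stimulated cells were cultured for 48 h with 1 µg/ml plate-bound anti-CD3 and 10 µg/ml soluble anti-CD28, antibodies that engage the T cell receptor complex and the costimulatory receptor CD28. Unstimulated cells of the same cross were lysed directly after isolation. Each group had 3 libraries labelled as biological replicates. The labels give no ages and do not say whether the replicates came from separate mice, so p-values measure only the spread between these libraries, which may be technical. The cross ran in 1 direction, every mus allele coming from the mother and every cast allele from the father, so strain and parent of origin cannot be told apart. Both groups share this parentage.

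In an F1 cell both alleles sit in the same nucleus and meet the same transcription factors. Sequence differences in a gene's own promoter, enhancers or transcript, and genomic imprinting, are among the known classes of mechanism by which 1 allele is expressed above the other. Engagement of CD3 and CD28 drives resting T cells into growth, division and the production of cytokines and cytotoxic proteins. Reads are informative about the allele only where they cross a difference between the strains, and a gene with a near-identical copy elsewhere can receive reads that belong to the copy.

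The stimulated libraries held 14.9, 18.04 and 20.2 M (mega) allelic reads, of which 14.6, 17.7 and 19.8 M were autosomal, and the 11373 genes held 99.7% of the autosomal reads. The median gene had 490, 599 and 675 reads in the 3 libraries. At 20 reads a share of 50% has a 95% exact Clopper-Pearson interval of 27.2% to 72.8%, and at 1000 reads one of 46.9% to 53.1%. These intervals cover counting error only, since the labels describe no molecular identifiers. Levels of marker genes were checked in RPKM, reads per kilobase of gene and M reads. All 12 T cell markers were at 1 RPKM or more in each stimulated library, with a summed level of 1414 to 1474 RPKM. The 8 B cell markers summed to 10.7 to 22.1 RPKM, with 5 of them at 1 RPKM or more, the 7 NK cell markers to 10.6 to 15.9 with 3 of them, and the 6 erythroid markers to 1.504 to 12.4 with none. The 8 myeloid markers summed to 0.960 to 2.59 RPKM, none reached 1 RPKM in every library and Adgre1 was listed at 0. In the unstimulated libraries the myeloid markers summed to 1099 to 3285 RPKM, the B cell markers to 118 to 232, the NK cell markers to 259 to 360 and the erythroid markers to 79.4 to 1336. In bulk RNA, fewer cells of a type and less RNA per cell cannot be told apart, nor can cells that use 1 allele and cells that use both unequally.

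Summed over all autosomal genes, the alleles were near balance. The cast share, reads of the cast allele as a percentage of reads of both, was 49.27%, 49.38% and 49.32% in the 3 libraries, with a mean of 49.3% ± 0.0549 (SD, n = 3). All 3 shares lay below 50%, and the exact two-sided sign-flip permutation p of the log2 ratio was 0.25, the smallest that 3 libraries allow. Whether reads of the cast allele were aligned or assigned less often than reads of the mus allele was not tested. The typical gene was near balance too. The median gene had a cast share of 49.2%, the middle of the distribution ran from 44.7% (25th percentile) to 53.7% (75th), and 8500 genes (74.7%) had a mean share between 40% and 60%. The median standard deviation between the libraries was 2.87 percentage points.

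Single genes often differed between alleles. The difference passed the test in 4767 of 11373 genes, 41.9% (edgeR's quasi-likelihood test with the alleles paired within each library, Benjamini-Hochberg adjusted p with 0.05 as the threshold). The cast allele was higher in 2033 of them (17.9% of all genes) and the mus allele in 2734 (24%). In 4731 of the 4767 all 3 libraries lay on the same side of 50%. Of the 4767, 2407 differed by less than 1.5-fold. A difference of at least 2-fold that passed the test was found in 1442 genes (12.7%), 738 towards cast (6.49%) and 704 towards mus (6.19%). A further 94 genes differed by 2-fold or more without passing. The balance of directions among all calls moved with the scaling, since factors that centre the bulk of the genes (TMM) gave 2401 calls towards cast and 2308 towards mus. The main scaling has a median log2 ratio of -0.05 over all genes, and that of TMM has one of 0.004. Whether unequal alignment or assignment of the reads of the alleles entered the balance of directions was not tested.

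**Figure D1:**
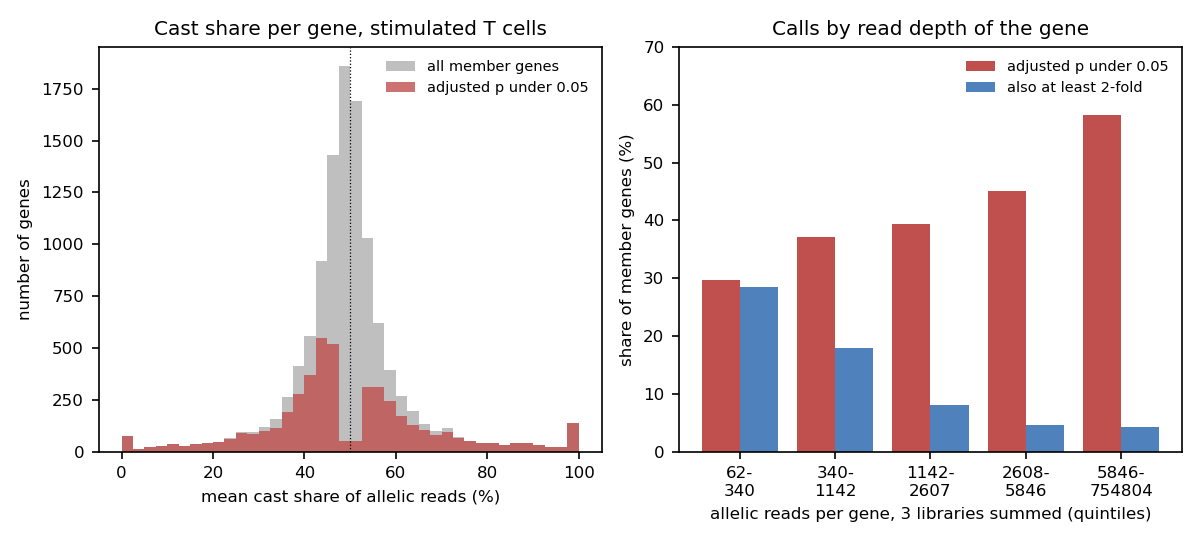
Left, number of genes (vertical axis) by mean cast share of allelic reads over the 3 stimulated libraries (horizontal axis, %), for all 11373 genes in grey and for the 4767 past the test in red, with a dotted line at 50%. Right, percentage of genes past the test (red) and past the test at 2-fold or more (blue) in quintiles of allelic reads per gene; the first rises from 29.8% to 58.2% and the second falls from 28.6% to 4.22%.

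The share of genes that passed depended on their depth, as the plot of calls by depth shows. In the quintile of genes with most reads (5846 to 754804 over the 3 libraries) 58.2% passed, and in that with fewest (62 to 340 reads) 29.8% passed. Differences of 2-fold or more ran the other way, from 28.6% of the shallowest quintile to 4.22% of the deepest. The median standard deviation between libraries was 8.68 percentage points in the shallowest quintile and 1.22 in the deepest. The quintiles between them had 37.1%, 39.4% and 45.1% of genes past the test, from shallow to deep. The share of each gene group past the test is therefore set beside the 41.9% of all genes and, where the median gene of the group lies in the deepest quintile, beside its 58.2%.

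By annotated class, pseudogenes stood out in these counts. Of 292 pseudogenes, 72.6% passed the test and 68.8% did so at 2-fold or more, against 42.3% and 10.3% of the protein-coding genes. The 399 long noncoding genes passed at 2-fold in 27.6% of cases, the 124 T cell receptor and immunoglobulin segments in 25.8%, the 62 small RNAs in 17.7% and the 395 loci annotated as to be experimentally checked in 10.6%. A cast share of at least 95% in all 3 libraries was seen in 139 genes, 85 of them pseudogenes and 48 protein coding. A cast share of at most 5% in all 3 was seen in 76, 44 of them pseudogenes and 24 protein coding. No mus read was counted in 74 genes and no cast read in 38. Pseudogenes have a close relative elsewhere in the genome by definition, so their values are uncertain, and 57.3% of all genes (6522) overlap another annotated gene. Genes that overlap no other passed in 43.5% of cases and the overlapping ones in 40.7%. Whether the counting used the strand of the read is not given in the sources used here, so reads of overlapping genes may not be kept apart.

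Among protein-coding genes in which both alleles were expressed, the 6 genes furthest towards cast included Pde12, Mx1, Havcr1 and Ctse. Pde12 (chr14:26659958-26669883), a phosphodiesterase of mitochondria, had cast shares of 93.6%, 94.99% and 92.5%, a log2 ratio of cast to mus of 3.91 ± 0.13 (SE, edgeR adjusted p = 2.7e-12). Mx1 (chr16:97447035-97462907), an interferon-induced antiviral GTPase, had 95.7%, 89.9% and 95.7% (log2 ratio 3.89 ± 0.32 SE). Havcr1 (chr11:46735080-46779578), the T cell surface receptor TIM-1, had 94.8%, 88.7% and 94.6% (3.73 ± 0.26 SE). All 3 libraries were near or above 90% in each of these genes, and the shares differed by a few points between libraries. Ctse (chr1:131638306-131675505), the aspartic protease cathepsin E, had 98.1%, 76.6% and 98.3%, with replicate 2 more than 20 points below the other libraries. It lies in a stretch of chromosome 1 where replicate 2 stood apart in other genes as well. The remaining pair were the histone genes Hist1h2ad at 93.3% ± 2.87 (SD, n = 3) and Hist1h2ah at 92.9% ± 0.702, which have near-identical copies and are uncertain.

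Within the same limits, with a mean cast share of 5% to 95%, the genes furthest towards mus were Dapl1, Efna5, Lilrb4a, Serpinb6a, Plk2 and Nefh. Dapl1 (chr2:59484653-59505020), a death-associated protein-like gene, had cast shares of 8.20%, 5.94% and 1.41% (log2 ratio -4.24 ± 0.41 SE, edgeR adjusted p = 6.7e-07) from at most 142 reads per library. With so few reads the 95% exact interval of replicate 1 ran from 4.001% to 14.6% and that of replicate 3 from 0.171% to 4.995%. Efna5 (chr17:62604184-62881317), the ephrin-A5 ligand, had 2.80%, 7.89% and 5.26%. Lilrb4a (chr10:51480612-51496613), an inhibitory immunoglobulin-like receptor, had 5.43%, 5.25% and 5.50% (log2 ratio -4.13 ± 0.05 SE) from at least 3777 reads per library, the closest spread of the 6. Plk2 (chr13:110395046-110400844), a polo-like kinase, had 4.34%, 5.89% and 8.27%. The protease inhibitor gene Serpinb6a (chr13:33917918-34002794) had a mean of 5.43% ± 3.03 (SD, n = 3) and Nefh (chr11:4938754-4948064), a neurofilament subunit, one of 7.18% ± 0.898. Every library of every one of these 6 genes was below 9%. Of the 12 genes, Pde12, both histone genes, Lilrb4a and Serpinb6a overlap another annotated gene. Lilrb4a and Serpinb6a also belong to gene families, and whether reads of related genes entered their shares was not tested.

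Of these 12 genes, 8 have an entry in the RefSeq promoter table (GRCm38.p6, 250 bases before the start), and Dapl1 is the one whose promoter holds the TATA box letters TATAAA on the gene's strand. It is printed because it is the C57BL/6 reference sequence before the gene with the largest difference towards mus in this set. The stretch is chr2:59484403-59484652 on the plus strand, and the capitals mark TATAAA, which opens 29 bases before the annotated start.
Dapl1 promoter: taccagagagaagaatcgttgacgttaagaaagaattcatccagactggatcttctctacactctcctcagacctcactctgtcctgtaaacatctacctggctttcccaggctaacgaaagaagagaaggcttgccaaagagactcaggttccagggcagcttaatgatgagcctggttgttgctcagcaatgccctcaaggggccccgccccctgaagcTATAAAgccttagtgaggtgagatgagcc

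TATAAA on the gene's strand was counted in all promoters as a description. Of the 10081 protein-coding genes, 8168 (81.02%) matched a promoter. The letters were in 6.67% of the 405 promoters of genes at 2-fold or more towards cast (27 promoters, 95% exact interval 4.44% to 9.55%) and in 7.52% of the 399 towards mus (30 promoters, 5.13% to 10.6%). Among the 7364 other protein-coding genes they were in 3.45% (3.04% to 3.89%), and among all 27025 promoters of the table in 8.12%. The median observed-to-expected ratio of CpG was 0.624 and 0.606 in the 2-fold groups and 0.769 in the others. The depth of the genes moved with these values, with a median of 522 and 499 reads in the 2-fold groups and 2428 in the others. Within quintiles of depth the 2-fold genes held TATAAA in 4.01%, 8.76%, 5.83%, 10.6% and 13.2% from the shallowest to the deepest, and the other genes in 4.51%, 3.42%, 3.90%, 1.82% and 4.19%. The share was higher in the 2-fold genes in 4 of the 5 quintiles.

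Some protein-coding genes were read almost entirely from 1 allele. Towards cast, the 4 with most reads were Icos, Gbp3, Gm12185 and Hnrnpu. Icos (chr1:60977927-61000320), a costimulatory receptor that appears on activated T cells, had cast shares of 96.1%, 95.4% and 95.5% from 7400 to 9955 reads per library (log2 ratio 4.48 ± 0.05 SE, edgeR adjusted p = 6.1e-18). Gbp3, an interferon-induced guanylate-binding protein, had 95.8%, 96.1% and 95.6%. The predicted gene Gm12185 was at 99.8% ± 0.121 (SD, n = 3) and Hnrnpu, a nuclear RNA-binding protein, at 97.8% ± 0.985. Towards mus, the 4 with most reads were Ly6e, Coro2a, Igf2r and Eno1b. Ly6e (chr15:74955051-74959905), a membrane-anchored Ly6 family protein, had 0.647%, 0.646% and 1.07%, which is 30, 36 and 82 cast reads against 4608, 5535 and 7609 mus reads. Coro2a, a coronin of the actin cytoskeleton, had 0.630% ± 0.121 (SD, n = 3). Igf2r, the maternally expressed imprinted receptor for IGF2 and mannose 6-phosphate, had 1.72% ± 0.687. Eno1b, whose copy Eno1 encodes the glycolytic enolase, had 2.47% ± 0.580 and is uncertain for that reason. In these 8 genes the libraries differed by at most 2 points.

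**Figure D2:**
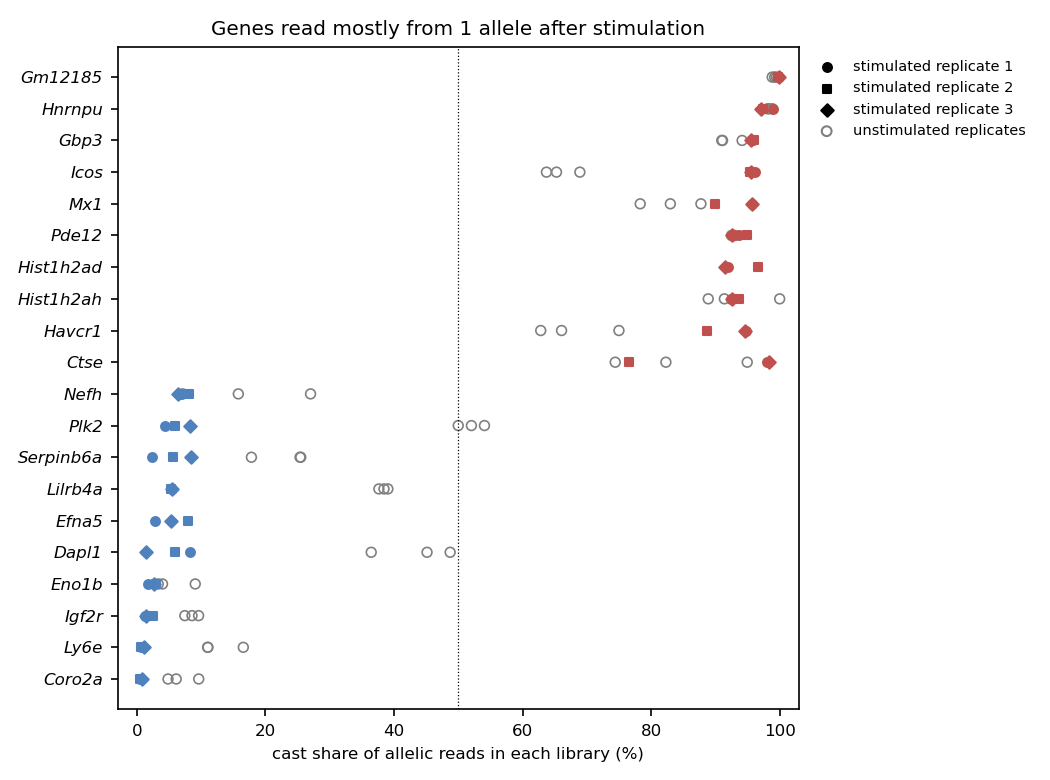
Cast share of allelic reads in each library (horizontal axis, %) for the 10 named genes furthest towards cast and the 10 furthest towards mus (rows), with filled symbols for the 3 stimulated replicates, open circles for the unstimulated replicates where each had at least 20 reads, and a dotted line at 50%. Lilrb4a and Plk2 sit near 5% and 6% after stimulation and near 38% and 52% before it, whereas Gm12185 and Hnrnpu stay above 97% in both.

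The 5 genes with most allelic reads show what the test resolved at great depth. Gzmb, the cytotoxic protease granzyme B, had 40.5%, 40.8% and 41.3% from at least 107460 reads per library (log2 ratio -0.53 ± 0.01 SE, edgeR adjusted p = 1.1e-14). Rplp0, a protein of the ribosomal stalk, had 36.2%, 34.9% and 34.3% (-0.89 ± 0.02 SE). Eef2, the translation elongation factor, had 48.4%, 48.7% and 48.6%, a difference of -0.08 on the log2 scale that passed here and was lost with DESeq2 (adjusted p = 0.18). Rpsa was at 49.3% ± 0.674 (SD, n = 3) with an edgeR adjusted p of 0.047, and its log2 ratio of -0.04 turned to 0.01 with TMM scaling. Rpph1, the RNA of ribonuclease P, had 48.7%, 51.4% and 55.05% and did not pass (edgeR adjusted p = 0.062). With TMM scaling its log2 ratio went from 0.099 to 0.15 and passed (edgeR adjusted p = 0.0077). It also passed without stimulated replicate 1 (0.19, edgeR adjusted p = 0.0018), whereas without stimulated replicate 3 the ratio was 0.002.

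The T cell receptor complex and its proximal signalling genes were mostly within a few points of balance, with exceptions. Of 34 genes, 8 passed towards cast and 13 towards mus (61.8% in all, beside 41.9% of all genes and 58.2% of the deepest quintile), and 2 reached 2-fold, both towards mus. The median log2 ratio was -0.01, beside -0.05 over all genes. Nfatc3 (chr8:106058840-106130537), a calcium-regulated transcription factor, had cast shares of 3.47%, 3.20% and 3.62% (log2 ratio -4.80 ± 0.14 SE, edgeR adjusted p = 4.6e-13), far from the 43.5% of Nfatc1 and the 49.6% of Nfatc2. It overlaps 2 other annotated genes. Ubash3b, a phosphatase that dampens receptor signalling, had 23.1%, 32.5% and 30.9%. Cd8a (chr6:71373427-71379173), the coreceptor chain of cytotoxic T cells, had 65.1%, 68.3% and 64.9% (log2 ratio 0.96 ± 0.05 SE). The chains of the CD3 complex did not share a direction, with Cd3e at 58.4% ± 0.851 (SD, n = 3) and Cd3d and Cd3g at 45.7% ± 0.671 and 43.7% ± 2.47. Ptprc, the phosphatase CD45, was at 41.2% ± 0.198 and Cd4 at 52.1% ± 0.954. Zap70, Cd247 and Lcp2 lay between 49.8% and 51.2% and did not pass.

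Activation, costimulatory and inhibitory receptors and ligands passed in 26 of 32 cases (81.25%, beside 41.9% of all genes and 58.2% of the deepest quintile), 10 towards cast and 16 towards mus. At 2-fold or more, 3 were towards cast and 4 towards mus, 21.9% of the group beside 12.7% of all genes. The 3 towards cast were Cd28, Ctla4 and Icos, which lie next to each other on chromosome 1. Cd28 (chr1:60716800-60773359), the receptor engaged by the stimulating antibody, had 78.4%, 77.8% and 79.3% (log2 ratio 1.87 ± 0.05 SE, edgeR adjusted p = 1.2e-13). Ctla4 (chr1:60887000-60915832), the inhibitory receptor that competes with CD28 for its ligands, had 79.7%, 76.8% and 78.5% (1.86 ± 0.05 SE). Both were below Icos in every library. Towards mus at 2-fold or more were Tnfrsf9, the costimulatory receptor 4-1BB, at 30.7% ± 0.177 (SD, n = 3), Cd274, the checkpoint ligand PD-L1, at 31.1% ± 1.65, Slamf7 at a mean of 32.5% and Havcr2. Havcr2, the inhibitory receptor TIM-3, had 38.1%, 4.76% and 9.09% from as few as 21 reads, so that replicate 1 lay far above the other libraries. Tnfrsf4, the receptor OX40, was at 40.4% ± 0.663. Il2ra, the inducible chain of the IL-2 receptor, was near balance at 48.2% ± 0.679, and its difference passed from at least 59233 reads per library (log2 ratio -0.10).

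Among cytokines, chemokines and cytotoxic effectors the difference passed in 23 of 31 genes (74.2%, beside 41.9% of all genes), 11 towards cast and 12 towards mus. At 2-fold or more were 9 of them, 29.03% of the group beside 12.7% of all genes. The 3 granzymes of the chromosome 14 cluster that lie towards cast were Gzmd with 78.9%, 84.5% and 69.2%, Gzme with 75%, 84.0% and 86.5% and Gzmf with 97.6%, 93.6% and 87.5%. These genes resemble each other closely in sequence and had 42 to 175 reads in their shallowest library, so their values are uncertain. Their neighbours Gzmc and Gzmb were towards mus, at 45.6% ± 2.63 (SD, n = 3) and 40.9% ± 0.382. Gzma on chromosome 13 (chr13:113093825-113100981), a protease of cytotoxic granules, had 31.3%, 31.4% and 25.4% (log2 ratio -1.27 ± 0.06 SE, edgeR adjusted p = 2.8e-10). Prf1, the pore-forming perforin, was at 38.2% ± 3.01.

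The cytokines went both ways. Il10 (chr1:131019845-131024974), an anti-inflammatory cytokine, had 78.2%, 72.2% and 75.6% (log2 ratio 1.61 ± 0.10 SE, edgeR adjusted p = 2.5e-09). Il9 had 92.4%, 77.8% and 86.4%, Il17f 75.6%, 65.6% and 73.3%, and the chemokine Ccl4 66.8%, 67.9% and 70.9%. Il21, a cytokine of helper T cells, was at 65.1% ± 3.80 (SD, n = 3), just under 2-fold. On the other side, Il22, a cytokine acting on epithelia, had 20%, 15.2% and 26.4% from as few as 20 reads. Csf2, which encodes GM-CSF, was at 34.1% ± 2.95 and Lif at 36.5% ± 1.49. Ifng and Il4, the cytokines that define type 1 and type 2 helper cells, were closer to balance at 45.5% and 42.3%, both past the test. Il13, Tnf and Fasl had mean shares of 49.8%, 49.6% and 49.2% and did not pass.

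Of 33 cytokine, chemokine and homing receptors, 10 passed towards cast and 13 towards mus (69.7% in all, beside 41.9% of all genes and 58.2% of the deepest quintile). S1pr1 and Il12rb1 were among the furthest apart with at least 100 reads per library. S1pr1, the receptor that lets T cells leave lymphoid organs, had 15.1%, 21.7% and 29.6% (log2 ratio -1.81 ± 0.23 SE, edgeR adjusted p = 1.2e-05), with a spread of 14.5 points between libraries. Il12rb1, a chain of the IL-12 receptor, had 67.8%, 65.9% and 67.2% (1.02 ± 0.05 SE). Il1r2, the decoy receptor for IL-1, and Cxcr6, a chemokine receptor, were at 13.1% ± 6.88 (SD, n = 3) and 22.6% ± 3.46 from few reads. The receptor chains for interferon gamma lay on opposite sides, Ifngr1 at a mean of 35.1% and Ifngr2 at 61.3%.

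Transcription factors of T cells passed in 25 of 52 genes (48.1%), 15 towards cast and 10 towards mus, and 4 (7.69%) reached 2-fold. The share past the test lies between the 41.9% of all genes and the 58.2% of the deepest quintile. Egr2, an early factor of T cell receptor signalling, had 100%, 99.6% and 99.3% from 191 to 283 reads, the 0 mus reads of replicate 1 allowing a mus share of up to 1.57%. Nfil3 was at 70.4% ± 5.92 (SD, n = 3). Towards mus, Klf6 (chr13:5861482-5870394), a Kruppel-like factor, had 13.4%, 15.5% and 13.8% (log2 ratio -2.59 ± 0.17 SE, edgeR adjusted p = 7.0e-09), and Maf, a factor of IL-10 and IL-4 producing cells, had 15.2%, 27.1% and 19.7%. Irf4, a factor induced by stimulation, was at 58.4% ± 0.278 and Nr4a3 at 62.2% ± 1.60. The lineage factors Tbx21 and Eomes were at means of 48.7% and 49.3% without passing, and Gata3 was at 52.3% and passed.

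The differences of NF-kB genes were small, as were those of the deepest quintile as a whole. Of 26 components and targets, 5 passed towards cast and 10 towards mus (57.7% in all, beside 41.9% of all genes and 58.2% of the deepest quintile), and none reached 2-fold. At 2-fold or more were 12.7% of all genes and 4.22% of the deepest quintile. The median absolute log2 ratio was 0.16, beside 0.27 over all genes and 0.17 in the deepest quintile. Traf1 (chr2:34941750-34961772), an adaptor of TNF receptors, had 36.4%, 35.3% and 34.7% (log2 ratio -0.86 ± 0.03 SE, edgeR adjusted p = 1.6e-11). Tnip1 and Tnip2, which bind the inhibitor A20, lay on opposite sides with 61.0% ± 2.33 (SD, n = 3) and 40.9% ± 1.14. Nfkbia, the inhibitor IkBa, was at 42.7% ± 0.631. Of the subunits, Nfkb1 was at 53.8% ± 1.55 and Nfkb2 at a mean of 45.3%, both past the test, while Rel, Rela and Relb at 49.7%, 50.5% and 49.1% did not pass.

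The GIMAP genes, a cluster of lymphocyte GTPases on chromosome 6, passed in 5 of 8 cases (62.5%, beside 41.9% of all genes and 58.2% of the deepest quintile), 1 towards cast and 4 towards mus. Gimap8 had 36.8%, 44.1% and 37.8%, Gimap7 37.8%, 41.1% and 41.2%, and Gimap5 55.7%, 55.1% and 56.8%. Neighbours in this cluster thus lay on both sides of 50%. Of 4 Schlafen genes with enough reads, 2 passed, both at 2-fold or more towards mus. At 2-fold or more this was 50%, beside 12.7% of all genes and 28.6% of the shallowest quintile, in which their median lies. Slfn9 had 5.98%, 17.7% and 2.75% (log2 ratio -3.44 ± 0.36 SE, edgeR adjusted p = 2.0e-06) and Slfn5 13.1% ± 5.47 (SD, n = 3) from 24 to 42 reads. Slfn2 and Slfn4 had means of 54.0% and 38.9% and did not pass.

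The group of major histocompatibility complex (MHC) and antigen presentation genes passed in 20 of 28 cases (71.4%, beside 41.9% of all genes), 7 towards cast and 13 towards mus. The MHC is highly variable between strains, but the group also holds antigen presentation genes that lie outside it. H2-D1 (chr17:35262730-35267499) and H2-K1, the classical class I molecules, were at 17.6%, 18.97% and 19.9% (log2 ratio -2.11 ± 0.04 SE, edgeR adjusted p = 4.1e-15) and at 31.4% ± 0.332 (SD, n = 3). The non-classical H2-T23 had 80.6%, 75.2% and 76.3%, and H2-T10, annotated as a polymorphic pseudogene, 74.3%, 73.8% and 74.4%. These genes resemble each other in sequence, so their values are uncertain. Whether cast reads were aligned or assigned less often at such variable genes was not tested. The killer cell lectin-like receptors, found on NK cells and some T cells, passed in 9 of 15 cases (60%, beside 41.9% of all genes), 3 towards cast and 6 towards mus. Klre1 had 75.5%, 81.4% and 73.4%, Klri2 71.2%, 66.0% and 73.3%, and Klrc1, a chain of the inhibitory receptor NKG2A, 27.5%, 22.3% and 22.6%. All 3 lie within 1 cluster on chromosome 6. The NK cell markers, of which Klre1 is one, reached at most 15.9 RPKM in sum, and their part in these shares was not tested.

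Interferon response genes spread over the whole scale. Of 41 genes, 12 passed towards cast and 8 towards mus (48.8%, beside 41.9% of all genes). At 2-fold or more were 16 of the 20, 39.0% of the group beside 12.7% of all genes. The median gene of the group lies in the quintile of 340 to 1142 reads, in which 37.1% passed and 17.9% were at 2-fold or more. Ifi47, an interferon-induced GTPase, had 99.1%, 99.8% and 100% (4, 1 and 0 mus reads), and its relative Irgm1 had 90.5%, 91.9% and 88.7%. Mx2, next to Mx1 on chromosome 16 and annotated as a polymorphic pseudogene, had 93.4%, 94.7% and 95.8% (log2 ratio 4.13 ± 0.24 SE, edgeR adjusted p = 1.8e-09). Trim30d lay on the other side at 7.67% ± 0.653 (SD, n = 3), and Ifit2 had 15.1%, 24.4% and 16.8%. Bst2, the antiviral tetherin, was at 73.7% ± 0.830. The guanylate-binding proteins are GTPases that attack intracellular pathogens, and Gbp2, Gbp3, Gbp5 and Gbp7 on chromosome 3 passed towards cast at 75.6% to 95.8%. Of the other members, Gbp8 passed towards mus at a mean of 16.3%, and Gbp4, Gbp6, Gbp9, Gbp10 and Gbp11 had means between 34.0% and 53.5% without passing.

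**Figure D3:**
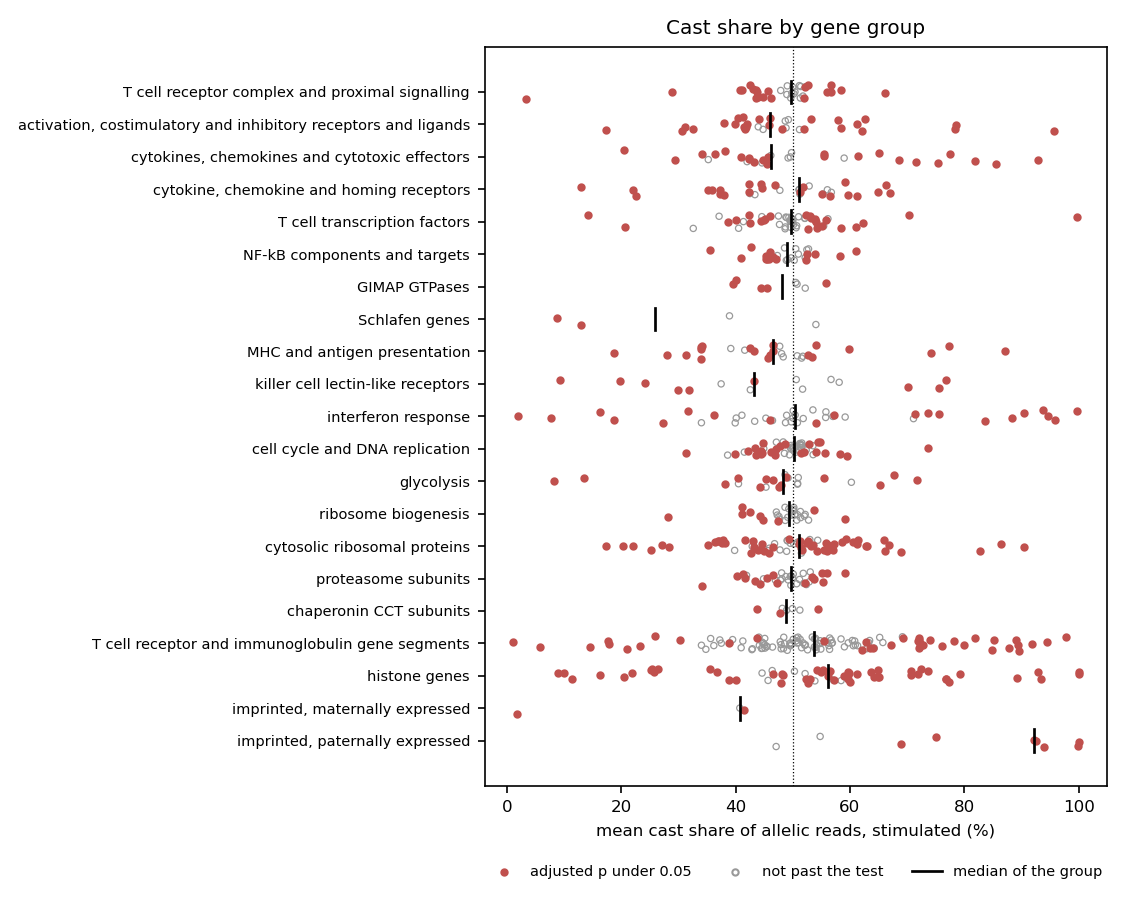
Mean cast share over the 3 stimulated libraries (horizontal axis, %) of each gene (points) in 21 gene groups (rows), red where the difference passed the test and open grey where it did not, with a black bar at the group's median and a dotted line at 50%. The medians of the signalling, NF-kB, cell cycle and proteasome groups lie between 49.0% and 50.2%, beside 49.2% over all genes. Single genes reach both ends of the scale in the interferon, histone and receptor segment groups.

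Genes of growth and division were close to balance as groups, as was the median of all genes with a cast share of 49.2%. Of 51 cell cycle and DNA replication genes, 10 passed towards cast and 14 towards mus (47.1% in all, beside 41.9% of all genes and 58.2% of the deepest quintile), with a median log2 ratio of 0.01 and 1 gene past 2-fold on each side. Kif11, a motor of the mitotic spindle, had 74.6%, 73.5% and 72.9% (log2 ratio 1.48 ± 0.05 SE, edgeR adjusted p = 1.8e-12), and Pcna, the sliding clamp of DNA polymerase, had 31.9%, 31.0% and 30.9% (-1.14 ± 0.04 SE). Both were tight between libraries. Ccnb1, the mitotic cyclin B1, was at 39.9% ± 0.222 (SD, n = 3). Of 29 ribosome biogenesis genes 2 passed towards cast and 7 towards mus (31.03%), and of 36 proteasome subunits 7 and 9 did (44.4%), with no proteasome gene at 2-fold. Both groups have their median gene in the deepest quintile and lay below its 58.2%. Npm1, a nucleolar chaperone with many pseudogenes, was the 1 biogenesis gene at 2-fold, with 31.8%, 27.5% and 25.4%. Rrp12 at 59.1% ± 1.90 and Pes1 at 41.1% ± 3.44 lay on opposite sides. Among proteasome subunits Psmd9 was at 34.1% ± 2.11, Psmd5 at 40.2% ± 2.69 and Psmc1 at 59.2% ± 1.76. The chaperonin CCT, a ring of different subunits needed in equal amounts, had 3 of 7 genes past the test. This was 42.9%, near the 41.9% of all genes and below the 58.2% of the deepest quintile, in which its median gene lies. The genes were Cct2 at 43.7% ± 0.362, Cct6a at 47.7% ± 0.719 and Tcp1 at 54.4% ± 0.603. The call of Cct6a was lost with TMM scaling (edgeR adjusted p = 0.054).

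Glycolysis genes passed in 14 of 22 cases (63.6%, beside 41.9% of all genes and 58.2% of the deepest quintile), 4 towards cast and 10 towards mus. Slc2a3 (chr6:122727809-122801640), the glucose transporter GLUT3, had 14.4%, 12.8% and 13.2% (log2 ratio -2.69 ± 0.06 SE, edgeR adjusted p = 9.0e-15). Gapdh had 7.68%, 8.72% and 8.34%, and Pgam1, phosphoglycerate mutase, had 72.6%, 69.3% and 73.1%. Both have processed pseudogenes that resemble them, and reads of such copies were not told apart. The lactate dehydrogenase genes Ldha and Ldhb were at means of 45.3% and 38.2%, and Slc2a1, the transporter GLUT1, at 49.2% without passing. Cytosolic ribosomal proteins, which have many pseudogene copies, passed in 54 of 72 cases (75%), 31 towards cast and 23 towards mus, and 11 (15.3%) reached 2-fold. Over all genes these shares were 41.9% and 12.7%, and in the deepest quintile 58.2% and 4.22%. Rps6 had 90.3%, 90.7% and 90.0% and Rpl19 85.9%, 86.0% and 87.5%, while Rpl29 had 17.1%, 20.8% and 14.1%. The subunits of this particle ranged over most of the scale, with the same limit on reads from copies.

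Zinc finger genes named Zfp, mostly DNA-binding proteins, passed in 60 of 237 cases (25.3%, beside 41.9% of all genes), 18 towards cast and 42 towards mus. Zfp783, annotated as a transcribed pseudogene, had 9.22%, 3.76% and 13.0%. Zfp53 had 26.1%, 28.8% and 22.7%, and Zfp317 28.7%, 24.2% and 28.5%. The segments of T cell receptor and immunoglobulin genes, which are joined differently in each lymphocyte, passed in 39 of 120 cases (32.5%, beside 41.9% of all genes and 29.8% of the shallowest quintile, in which their median gene lies), 28 towards cast and 11 towards mus. Trav7d-3 had 97.1%, 93.0% and 93.2%, Trbv24, annotated as a pseudogene, 85.3%, 87.9% and 95.7%, and Trav1 93.3%, 80.9% and 89.2%. Of 61 histone genes, made in S phase for new chromatin, 35 passed towards cast and 18 towards mus (86.9% in all, beside 41.9% of all genes and 58.2% of the deepest quintile). Hist1h2al, annotated as a processed pseudogene, had 3295, 4334 and 4820 cast reads and no mus read. Its cast level was thus at least 4150-fold higher against a floor of 3 reads over the group. Histone genes and receptor segments occur in families of near-identical copies, so shares of single genes are uncertain.

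Imprinted genes, which are expressed from 1 parental copy, are a case where the parent is known to set the allele. Here the father's copy is cast. Of 28 paternally expressed genes listed, 9 had enough reads, 7 passed towards cast, all at 2-fold or more, and none towards mus. These 7 were 77.8% of the 9, beside 17.9% of all genes past the test towards cast and 6.49% at 2-fold or more. Kcnq1ot1, a long noncoding RNA of an imprinted cluster, had 100%, 99.8% and 99.7% from at least 4050 reads per library. Airn, the antisense RNA of Igf2r, had 23, 36 and 52 cast reads and no mus read, at least 37-fold higher against the floor of 3 reads over the group. Plagl1, Nespas and Zrsr1 were at 94.0% ± 6.43, 92.6% ± 7.45 and 92.1% ± 13.6 (SD, n = 3). Peg13 had 78.6%, 73.0% and 73.3% and Impact 73.6%, 60.2% and 72.8%. Sfmbt2 and Mcts2 were at 47.1% and 54.8% and did not pass. Of 15 maternally expressed genes, 3 had enough reads, and 66.7% of these passed towards mus, beside 24% of all genes. Igf2r, given above, and Gnas at 40.4%, 44.95% and 39.1% passed towards mus, and Osbpl5 at a mean of 40.7% did not pass. Kcnq1ot1, Airn, Igf2r, Nespas and Gnas overlap other annotated genes, Airn and Igf2r each other on opposite strands.

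Neighbouring genes sometimes shared a direction. Runs of at least 5 consecutive genes that all passed the same way at 1.5-fold or more numbered 13, of which 11 were towards cast and 2 towards mus. Those of 5 genes on chromosomes 4, 7 and 17, all towards cast, held 1, 1 and 2 protein-coding genes. Their other genes are annotated as pseudogenes, whose values are uncertain. The 2 runs towards mus, of 6 and 5 genes, held 5 protein-coding genes each. The longest of the 13 runs had 10 genes. On chromosome 19 (chr19:4097182-4195420) it ran from Cdk2ap2 to Ppp1ca, with mean cast shares from 62.1% to 100% over 9 protein-coding genes and 1 long noncoding gene. Within it Ptprcap, a partner of CD45, had 79.99%, 80.5% and 85.9%, Tbc1d10c, an inhibitor of calcineurin, 73.8%, 77.5% and 78.5%, and Ppp1ca, a catalytic subunit of protein phosphatase 1, 62.8%, 62.3% and 61.3%. The actin regulator Coro1b was at 63.6% ± 1.67 (SD, n = 3) and Pitpnm1 at 66.0% ± 0.922. Carns1 had 40, 48 and 41 cast reads and no mus read, at least 43-fold higher against the floor of 3 reads over the group. Rps6kb2 had 74.0%, 61.7% and 60.2%, and its call was lost without stimulated replicate 1 (edgeR adjusted p = 0.088). Of the 10 genes, 6 overlap another annotated gene.

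The other run of 10 genes held T cell receptor alpha variable segments from Trav1 to Trav8d-1 (chr14:52427928-52778995), with mean shares from 72.8% to 94.4%. Trav3-1 had 87.1%, 92.4% and 88.4%, and Trav7d-4 87.6%, 84.7% and 82.1%. Trav6-2 and Trav8d-1 rested on 43 and 21 reads in their shallowest library and lost their calls without stimulated replicate 3 (edgeR adjusted p = 0.23 and 0.19). Next in length, together with runs on chromosomes 6 and 10, was the run of 7 genes on chromosome 3 (chr3:142239590-142746870) from Pdlim5 to Kyat3, which holds the guanylate-binding proteins named above. Gbp5 had 88.8%, 87.8% and 88.5% (log2 ratio 2.93 ± 0.05 SE, edgeR adjusted p = 7.9e-16), Gbp7 82.6%, 86.5% and 81.9%, Gbp2b 83.8%, 88.1% and 87.9% and Gbp2 74.9%, 77.6% and 74.4%. The genes at its ends were closer to balance, Pdlim5 at 71.5% ± 2.18 (SD, n = 3) and Kyat3 at 63.0% ± 1.15. The runs towards mus were the Ly6 cluster on chromosome 15 (chr15:74955051-75135128), in which 6 genes from Ly6e on had means from 0.786% to 36.9%, and 5 genes around Gzma on chromosome 13. The Ly6 and guanylate-binding genes are families of related neighbours. Whether reads of related genes entered their shares was not tested. Whole chromosomes differed little, with summed cast shares from 48.4% on chromosome 5 to 51.0% ± 0.880 (SD, n = 3) on chromosome 1. Genes at 2-fold or more made up 8.96% of chromosome 12 and 18.3% of chromosome 13.

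In a small set of genes 1 library stood apart from both others. This was looked for after the values were seen, as a library 20 percentage points or more from both others, in the 8890 genes with at least 100 reads in each stimulated library. It was found in 66 genes, 24 in replicate 1, 27 in replicate 2 and 15 in replicate 3, and in 55 of them the library lay towards cast. The widest ranges among protein-coding genes were those of Cxcr4, Ublcp1, Rrs1 and C1qbp. Cxcr4 (chr1:128588199-128592293), the receptor for the chemokine CXCL12, had 28.9%, 100% and 36.8%, and in replicate 2 it had 244 cast reads and no mus read, which allows a mus share of up to 1.23%. Ublcp1 had 95.6%, 35.8% and 32.9%, Rrs1 94.2%, 32.8% and 36.5%, and C1qbp, a mitochondrial protein, 99.3%, 45.8% and 41.4%. None of the 4 passed the test over all 3 libraries, and without the library that stood apart each passed towards mus, Cxcr4 with a log2 ratio of -1.01 (edgeR adjusted p = 5.4e-04) and Rrs1 with -0.92 (edgeR adjusted p = 5.6e-05).

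These genes were gathered in places. Of the 66, 42 fell in 6 regions that hold at least 3 of them for the same library with no gap above 8 Mb. The region with most of them (chr1:128363707-135752232, 7.39 Mb) held 16 such genes, all in replicate 2. Over its 50 genes with at least 100 reads the median cast share was 50.6%, 64.0% and 49.4% in replicates 1, 2 and 3, with 16 of the 50 counted as apart. Genes in it include Cxcr4, Ctse and the histone demethylase Kdm5b. Next by number (chr11:69070806-72313733) came 10 genes in which replicate 1 stood apart, among them C1qbp and Polr2a, the largest subunit of RNA polymerase II. Those with fewer such genes lay on chromosome 1 (chr1:85894281-93305915 in replicate 2, 7.41 Mb long with 5 genes, and chr1:9545408-9944118 in replicate 1, with 3), chromosome 11 (chr11:43420250-46707061 in replicate 1, with 3) and chromosome 18 (chr18:6201002-11945630 in replicate 3, with 5). Inside the regions the unstimulated library with the same number stood apart the same way in 27 of the 39 genes with enough reads, and outside them in 2 of 23. Cxcr4 had 37.2%, 99.7% and 40.1% in the unstimulated libraries. Leaving out all 203 genes of the regions gave 737 genes at 2-fold or more towards cast and 706 towards mus. Of the genes given in earlier comparisons, Il10, Ctse and Havcr2 lie in a region, Havcr2 in that of chromosome 11 where replicate 1 stood apart, and Havcr1 starts just beyond it.

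**Figure D4:**
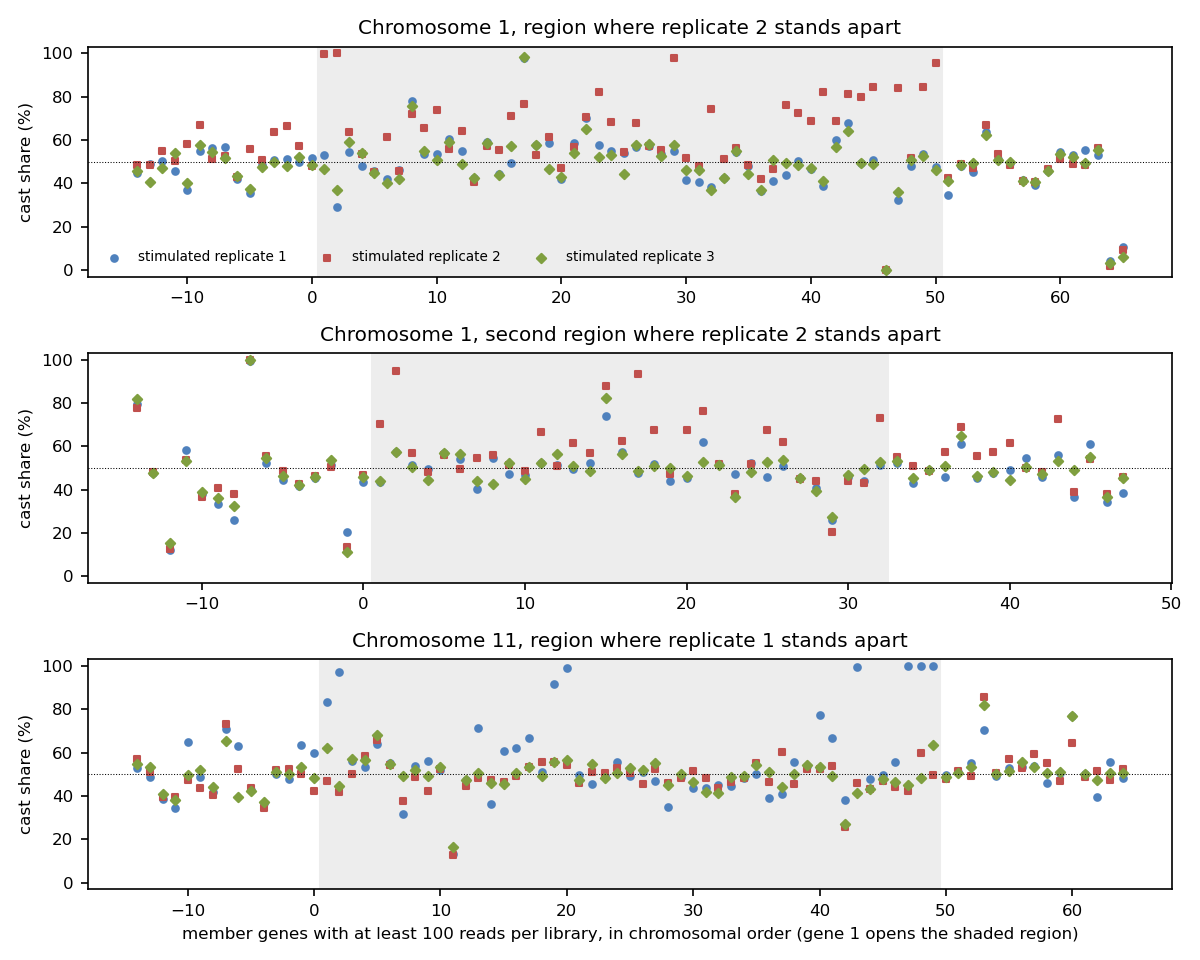
Cast share of allelic reads (vertical axis, %) in the 3 stimulated replicates (symbols) for consecutive genes with at least 100 reads per library, in chromosomal order (horizontal axis, gene 1 opens the region), across 3 of the 6 regions (shaded) and their flanks, with a dotted line at 50%. In the first region replicate 2 (red squares) has a median of 64.0% against 50.6% and 49.4%, and single genes of the standing-apart replicate reach 100%.

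Most of the differences were on the same side of 50% before stimulation. Of the 4767 genes past the test, 4356 had at least 20 reads in each unstimulated library as well, and in 3633 of these the mean unstimulated share lay on the same side. The change in the log2 ratio between stimulated and unstimulated cells was tested as an interaction in edgeR over 10488 autosomal genes, and 1376 passed (13.1%), 742 with a higher cast share after stimulation (7.07%) and 634 with a lower one (6.05%). Of the 4356 genes, 1051 passed. Of the 1442 genes at 2-fold or more, 354 had too few unstimulated reads to be tested, 1000 of the other 1088 were on the same side in both conditions and 347 passed the interaction test. The 4356 and the 1088 genes were chosen by their stimulated shares, which also enter the interaction test. Il9, Gzmd, Gzmf and Efna5 were among the genes with too few unstimulated reads. The myeloid markers summed to between 1099 and 3285 RPKM in unstimulated libraries and to at most 2.59 in stimulated ones, and NK cell, B cell and erythroid markers also had lower sums after stimulation, as given above. Their part in these changes was not tested.

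In several named genes, picked by their stimulated values, the imbalance was far larger after stimulation. Icos had a mean cast share of 66.0% in unstimulated cells and 95.7% in stimulated ones (interaction on the log2 scale 3.54, edgeR adjusted p = 2.5e-11). Plk2 went from 52.0% to 6.17% (-4.03, edgeR adjusted p = 1.4e-08), Lilrb4a from 38.4% to 5.40% (-3.45), Dapl1 from 43.5% to 5.18% (-3.85) and Ly6e from 12.9% to 0.786% (-4.15). In Cd28 the mean was 66.4% before and 78.5% after, whereas its neighbour Ctla4 had 75.5% and 78.4% and did not pass the interaction test (edgeR adjusted p = 0.28). Pde12, Hnrnpu, Nfatc3 and Kcnq1ot1 had unstimulated means of 92.8%, 98.5%, 4.09% and 99.8%, close to their values after stimulation, and did not pass either.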

How the data were processed

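Libraries of splenic CD3+ T cell RNA were sequenced for 3 stimulated and 3 unstimulated samples. The deposited count table gives, per gene and library, whole-number counts of reads assigned to the C57Bl/6 or the Castaneus allele, per the file headers. A deposited RPKM table, both alleles together, per the file headers, served for marker levels. STAR 2.7.1a, featureCounts and the mm10 build are named in the submitters' processing notes. The sources used here do not give how alleles were assigned, the annotation or the use of strand.

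Alleles were compared with edgeR 4.0.16 in R 4.3.3 (quasi-likelihood test, two-sided, library as a term, the same library size for both alleles of a library), so the pairing comes from alleles being read in the same RNA. Benjamini-Hochberg adjustment ran over the 11373 genes. A log2 ratio of 1 is called 2-fold. The interaction test used all 6 libraries. The allele test, but not the interaction test, was checked on simulated data. The simulation held fewer changed genes than the data and no regions where 1 library stands apart. Stimulated libraries differed from each other beyond sampling noise (chi-square per degree of freedom 5.73 to 9.85), so none was counted as a repeat. Alternatives were TMM factors, DESeq2 1.42.0, limma 3.58.1 on log2 ratios with a pseudocount of 0.5, minima of 10, 50 or 1 reads, leaving out each replicate, no library term, adding X-linked genes and protein-coding genes only. Positions are GENCODE M21 on mm10, matched by identifier for 11353 of the genes. Promoters are RefSeq's (GRCm38.p6), taking the first listed start, matched by Entrez identifier or symbol.

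The genes named were the 6 furthest to each side among protein-coding genes with at least 100 reads per library and a mean share of 5% to 95%, and the 4 with most reads beyond these limits on each side. Further names were the 5 genes with most reads, the 4 with the widest range, up to 3 per gene group and the 3 longest runs. Not every gene that the rule names is reported here. Other genes of the groups were named after their values were seen. The genes and groups were chosen with earlier results of these data known. The regions where 1 library stands apart and the comparison without overlapping genes were chosen after seeing the data.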

Additional observations from a re-analysis of the deposited data

Results flagged for a closer look

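In 43 of the 104 named genes tested in both states, the log2 ratio of cast to mus differed between stimulated and unstimulated cells (edgeR interaction, adjusted p under the threshold, stimulated minus unstimulated on the log2 scale, 3 libraries per group). The cast share was higher after stimulation in 22 and lower in 21. Over all genes tested, 13.1% passed. Most of the named genes were picked for large differences in the stimulated libraries, and these values enter this test. The number of named genes that passed therefore cannot be compared with the share over all genes. Myeloid marker genes summed to between 1099 and 3285 RPKM in unstimulated libraries and to at most 2.59 in stimulated ones. NK cell markers summed to 259 to 360 and 10.6 to 15.9, B cell markers to 118 to 232 and 10.7 to 22.1, and erythroid markers to 79.4 to 1336 and 1.504 to 12.4 in the same order. The part of these cells in the differences was not tested.

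Towards cast, the largest differences were those of Carns1 (4.96, from 40 to 48 stimulated reads per library and no mus read, a fitted value and no bound), Icos (3.54), Havcr1 (2.66) and Gm12185 (2.28). In the guanylate-binding run on chromosome 3, 5 of 7 genes differed, Gbp7 by 1.82, Gbp5 by 1.45, Gbp2 by 1.18, Pdlim5 by 1.11 and Gbp3 by 0.97, while Gbp2b (0.50, edgeR adjusted p = 0.58) and Kyat3 (-0.57, edgeR adjusted p = 0.17) did not pass. Mx1 differed by 1.58, and this was lost without stimulated replicate 1 (1.38, edgeR adjusted p = 0.055) or 3 (1.35, edgeR adjusted p = 0.053). Among receptors of lymphocytes Klri2 differed by 1.40, Klre1, itself in the NK cell marker list, by 1.36, Cd28 by 0.89 and Cd8a by 0.65. H2-T10 of the MHC, annotated as a polymorphic pseudogene, differed by 0.95. Gimap8 at 1.21 and Gimap5 at 0.76 differed in the GIMAP cluster. Smaller values were those of Rpl19 (0.68), Rrp12 (0.50), Rps6 (0.39), Pgam1 (0.31) and Rpsa (0.19). Pgam1 lost its call with DESeq2 (0.29, adjusted p = 0.17) and without 5 of the 6 libraries in turn.

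Towards mus, Ly6e differed by -4.15, Plk2 by -4.03, Dapl1 by -3.85, Coro2a by -3.52 and Lilrb4a by -3.45. They were followed by Slfn9 (-2.52), the imprinted Igf2r (-2.42) and Serpinb6a (-2.31). The transcription factor Klf6 differed by -1.81, and the glycolysis genes Gapdh and Slc2a3 by -1.78 and -1.76. S1pr1 differed by -1.03 and Gzma by -0.97. Zfp317 (-0.79), Traf1 (-0.77), Pitpnm1 (-0.68), H2-D1 (-0.58), Tbc1d10c (-0.49), Rpph1 (-0.49) and Pcna (-0.29) differed less. Ubash3b differed by -0.61 and lost its call without stimulated replicate 1 (-0.41, edgeR adjusted p = 0.11) and without unstimulated replicate 1 or 2.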

How the results depend on the processing

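The counts of genes towards cast (2033) and towards mus (2734) stayed within 1.5 times under TMM scaling, limma, each minimum of reads, each left-out library, added X-linked genes and protein-coding genes only. Towards mus, DESeq2 gave 1763 genes. Among genes that overlap no other gene, an alternative that tests 4831 genes, 899 passed towards cast and 1129 towards mus, 360 and 312 of them at 2-fold or more. No gene called under both the main and an alternative setting changed direction. Leaving out a replicate gave 3612 to 3907 genes past the test. Without pairing, that is with no replicate block, 4138 genes passed, 1773 towards cast and 2365 towards mus. The summed cast share was 49.2% over protein-coding genes and 49.6% with equal weight for each gene. Of the 110 named genes, 105 passed and 99 did so under every alternative in which they were tested. The exceptions were Cct6a, Eef2, Rpsa, Trav6-2, Trav8d-1 and Rps6kb2. Rpsa went from -0.038 to 0.013 with TMM and 0.011 with DESeq2, neither past the test, and the cause was not tested.

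Single libraries decided the genes whose libraries stood apart. Left out in turn, they gave log2 ratios of -1.01 to 1.20 for Cxcr4, -0.94 to 1.05 for Ublcp1, -0.92 to 1.02 for Rrs1 and -0.37 to 2.12 for C1qbp. Without pairing, the replicate block left out, Cxcr4 was at -0.014. Depth limits the shallowest quintile of genes, where the median standard deviation between libraries was 8.68 percentage points.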
